A study of Mus musculus with 2 samples.

Results

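Genes of DNA replication and of the supply of its nucleotides were compared between a pair of sorted mouse bone marrow populations. The set has 41 genes, listed by name for their roles in origin licensing, helicase activation, DNA synthesis, the sliding clamp, the joining of lagging-strand pieces, nucleotide supply, entry into S phase and the copying of DNA methylation. All 41 were measured, among 19935 genes with at least 1 probe set that names a single gene. Both populations came from the marrow of 6-week-old mice of ddY, an outbred strain. The mononuclear layer of a gradient was labelled with antibodies to RANK, through which RANKL drives osteoclast formation, and to c-Fms, through which M-CSF acts, and then sorted by flow cytometry. The populations were RANKhigh c-Fmslow and RANKlow c-Fmshigh, with 1 array each, so that the comparison rests on 2 arrays. How many mice stand behind an array is not stated in the labels. Below, "RANKhigh array" stands for the RANKhigh c-Fmslow cells and "c-Fmshigh array" for the RANKlow c-Fmshigh cells. Without replicate arrays no difference can be set against biological error, and no test was made.

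Replication starts at origins, where the origin recognition complex (ORC), Cdc6 and Cdt1 load the ring-shaped MCM2-7 helicase onto DNA in G1, a step called licensing. In S phase, cyclin-dependent kinases, Cdc45, GINS and Mcm10 turn the loaded rings into active helicases, and polymerases, the clamp PCNA and its loader RFC copy both strands. Most of these genes are transcribed around the entry into S phase under control of E2F factors, which the RB proteins restrain. In bone marrow the dividing cells include erythroblasts, precursor B cells and immature myeloid cells, and monocytes and granulocytes stop dividing as they mature.

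Promoter letters are shown first, because they are a feature that the listing of the genes did not use. RefSeq windows of the GRCm38.p6 build, each from 250 bases before to 50 bases after a transcription start, were found for 34 of the 41 genes, in 42 windows. There was none for Ccne2, Gins1, Gins2, Gmnn, Mcm4, Pole and Prim2. The letters TTTNNCGC, an E2F-type motif, were searched on both strands, as was CCAAT, the box bound by NF-Y. TTTNNCGC stood in 17 of the 42 windows (40.5%), against 1698 of all 32851 windows (5.17%). By gene it was found for 16 of 34, against 5.93% of all genes with a window. It was found for 10 of the 22 genes higher on the RANKhigh array and for 6 of the 12 genes lower there. Its special case TTTGGCGC stood in 16.7% of the windows of these genes and in 0.514% of all windows, and CCAAT in 59.5% against 37.4%. GGGCGG, a run of only G and C letters, stood in 69.0% of the windows of these genes and in 35.7% of all. The share of G and C letters in the windows was not measured. The shares were not matched for base composition, and a match of letters does not show binding.

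The 7 genes with TTTGGCGC are shown because they include the highest and the lowest of all 41 differences, E2f2 and Mcm3. Of the 7, Cdt1 and E2f2 were higher on the RANKhigh array, and Dnmt1, Mcm3, Mcm5, Mcm6 and Pola1 were lower (Dnmt1 by 0.07, with a sign that turned under 2 scalings given below). Each run is the match with up to 10 bases on either side, 5′ to 3′ on the gene's own strand, with TTTGGCGC or its reverse complement in capitals. The matches begin at base 33 after the start for Cdt1 (chr8:122568037-122568064, + strand), base 34 after 1 of the 3 listed starts of Dnmt1 (chr9:20952574-20952600, - strand), base 40 for E2f2 (chr4:136172303-136172323, + strand) and base 39 for Mcm3 (chr1:20820263-20820284, - strand). Before the start lie those of Mcm5 (chr8:75109350-75109377, + strand), Mcm6 (chr1:128359798-128359825 and chr1:128359735-128359762, - strand) and Pola1 (chrX:93632276-93632303, - strand).
Cdt1: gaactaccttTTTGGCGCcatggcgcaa
Dnmt1: cggggcagcgTTTGGCGCgggctgtgc
E2f2: cggcatatagTTTGGCGCtaa
Mcm3: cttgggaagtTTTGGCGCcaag
Mcm5: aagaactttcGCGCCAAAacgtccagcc
Mcm6: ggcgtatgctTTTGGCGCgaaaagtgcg
Mcm6: attggacgggTTTGGCGCgaagtagctc
Pola1: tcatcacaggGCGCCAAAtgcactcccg
The same core letters sit 40 and 39 bases into the transcripts of E2f2 and Mcm3, the genes at opposite ends of the order. By gene, TTTGGCGC was found for 2 of the 22 higher genes and for 5 of the 12 lower ones, against 0.585% of all genes with a window. This split by direction was not tested.

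For 3 genes the stretch of 250 bases before the start is given whole, in lower case, with CCAAT or its reverse complement in capitals. They are the 2 genes with the highest difference, E2f2 (chr4:136172024-136172273, + strand, the outermost of 2 starts) and Ccne1 (chr7:38107491-38107740, - strand), and the gene with the lowest, Mcm3 (chr1:20820313-20820562, - strand).
E2f2: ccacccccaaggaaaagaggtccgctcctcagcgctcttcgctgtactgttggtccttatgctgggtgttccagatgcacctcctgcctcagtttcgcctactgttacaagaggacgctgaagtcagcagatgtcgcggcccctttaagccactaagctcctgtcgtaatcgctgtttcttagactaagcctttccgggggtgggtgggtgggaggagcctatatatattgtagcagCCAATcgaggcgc
Ccne1: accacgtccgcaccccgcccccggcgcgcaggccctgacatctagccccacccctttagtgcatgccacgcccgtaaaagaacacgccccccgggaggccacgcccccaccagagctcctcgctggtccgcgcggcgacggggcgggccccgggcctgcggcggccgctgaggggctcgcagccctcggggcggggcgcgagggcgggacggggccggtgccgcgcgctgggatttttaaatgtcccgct
Mcm3: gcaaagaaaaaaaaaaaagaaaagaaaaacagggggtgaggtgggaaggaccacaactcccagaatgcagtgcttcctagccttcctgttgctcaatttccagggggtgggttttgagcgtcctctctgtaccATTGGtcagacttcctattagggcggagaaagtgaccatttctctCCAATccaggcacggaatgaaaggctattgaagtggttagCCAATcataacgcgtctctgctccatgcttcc
TTTNNCGC was not found in any of these 3 stretches. CCAAT stood in that of Mcm3 3 times, in that of E2f2 1 time and in that of Ccne1 0 times, and G and C made up 48.0%, 55.2% and 76.0% of the letters of Mcm3, E2f2 and Ccne1. Over all windows, CCAAT was found for 10 of the 12 genes that were lower on the RANKhigh array and for 11 of the 22 that were higher, against 41.1% of all genes with a window. GGGCGG leaned the other way, with 8 of the 12 lower genes and 18 of the 22 higher ones, against 38.2% of all genes. Neither split by direction was tested.

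The labels were set beside the sort markers and the cell content, with earlier results of these data known. Csf1r, which encodes c-Fms, stood at 164 against 821 (RANKhigh array named first, here and below), and Tnfrsf11a, which encodes RANK, at 104 against 119. The name RANKhigh thus describes the sort, and this transcript was not higher on the RANKhigh array. Tnfrsf11a had 1 probe set, and its values lay not far above the background guide given below (83.8 and 81.8), so they say little about RANK transcript. All 9 measured monocyte markers, including the sort marker Csf1r, were lower on the RANKhigh array (median log2 difference -1.98, summed intensity 4839 against 21580). All 11 erythroid markers (median 2.35, summed 14525 against 3529) and all 12 B-lineage markers (median 1.90, summed 14773 against 4003) were higher there, each by 2-fold or more. Neutrophil markers were higher for 11 of 13 (median 1.5, summed 48007 against 19743), with Mpo (-0.55) and Prtn3 (-0.46) lower. Eosinophil (median 1.87, summed 12331 against 1283), basophil and mast cell (1.56, 3167 against 787), T and NK cell (0.99, 3344 against 1274) and megakaryocyte lists (0.69, 2102 against 1041) also had medians above 0. The stem and progenitor list had a median of 0.05 (summed 1398 against 1299), but its genes were divided. Of them 4 were above 0 and 4 below, from Cd34 (-1.12) to Gfi1b (1.46). The median of this list came to -0.14 where both values had to exceed the background guide given below. No marker intensity was at 0. At or under that guide were 0 monocyte, neutrophil, erythroid, B-lineage and megakaryocyte markers on either array. On the c-Fmshigh array 2 of 7 eosinophil, 4 of 7 basophil and mast cell, 4 of 12 T and NK cell and 2 of 8 stem and progenitor markers were, and on the RANKhigh array 0, 1, 3 and 1. In sorted bulk cells, fewer cells of a type and less RNA per cell cannot be told apart, and the part of cell content in the differences below was not tested.

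The 41 replication genes lay between 1.55-fold lower and 1.87-fold higher in RANKhigh c-Fmslow cells, with more of them higher than lower. No gene of the 41 was 2-fold apart in either direction. Of the 11089 genes that passed a level filter, 4.34% were higher by 2-fold or more in RANKhigh c-Fmslow cells and 4.26% lower by as much. At those shares only a few of 41 genes would be 2-fold apart, and whether the count of 0 sets these genes apart was not tested. The filter asked that the higher of a gene's intensities reach 93.6, the median of all values, and all 41 genes passed it. The difference of a gene is the log2 of its RANKhigh array intensity less that of its c-Fmshigh array intensity, and it ran from -0.63 for Mcm3 to 0.90 for E2f2 with a median of 0.11. Their quartiles were -0.19 and 0.40, against -0.30 and 0.25 (median -0.01) for all genes that passed the filter. By direction, 26 of the 41 (63.4%) were higher on the RANKhigh array, where 48.5% of all genes were. At 1.5-fold, 4 genes were higher (E2f2, Ccne1, Orc6 and Rrm2; 9.76%, near the 10.5% of all genes) and 1, Mcm3, was lower (2.44%, against 12.4% of all genes). When differences were centred on those of genes at a like level, the first count became 7, with Orc1 (0.65), Gmnn (0.62) and Rfc4 (0.62) added, and the second 0, with Mcm3 at -0.52.

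All 41 genes stood above a guide to background on both arrays. The guide to background was the 95th percentile of 1189 olfactory and vomeronasal receptor genes, 83.8 on the RANKhigh array and 81.8 on the other. The lowest intensities among the 41 were 148 for Cdt1 on the RANKhigh array and 122 for E2f2 on the c-Fmshigh array. No fold of the 41 genes therefore rests on a value under the guide, but the guide is not the background of each probe set. On the c-Fmshigh array, E2f2 (122) and E2f1 (123) lay near the 119 of Tnfrsf11a. The size of a dim gene's difference still depends on the floor. With a pseudocount of 32, the difference of E2f2 came from 0.90 to 0.76 and that of E2f1 from 0.51 to 0.42. As a guide to disagreement within an array, genes with exactly 2 probe sets (558 of the filtered genes) showed a median gap of 0.19 between the log2 differences of the probe sets and a 90th percentile of 0.67. The differences of 27 of the 41 genes were larger in size than the first value. Only those of E2f2, Ccne1 and Orc6 were larger than the second. The quartiles of all filtered genes, -0.30 and 0.25, also lay beyond the first value, so differences of that size were common among all genes. The share of all genes beyond either value was not counted. This guide holds no biological error. Of the 41 genes, 39 had 1 probe set, so most of them carry no such check of their own.

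**Figure D1:**
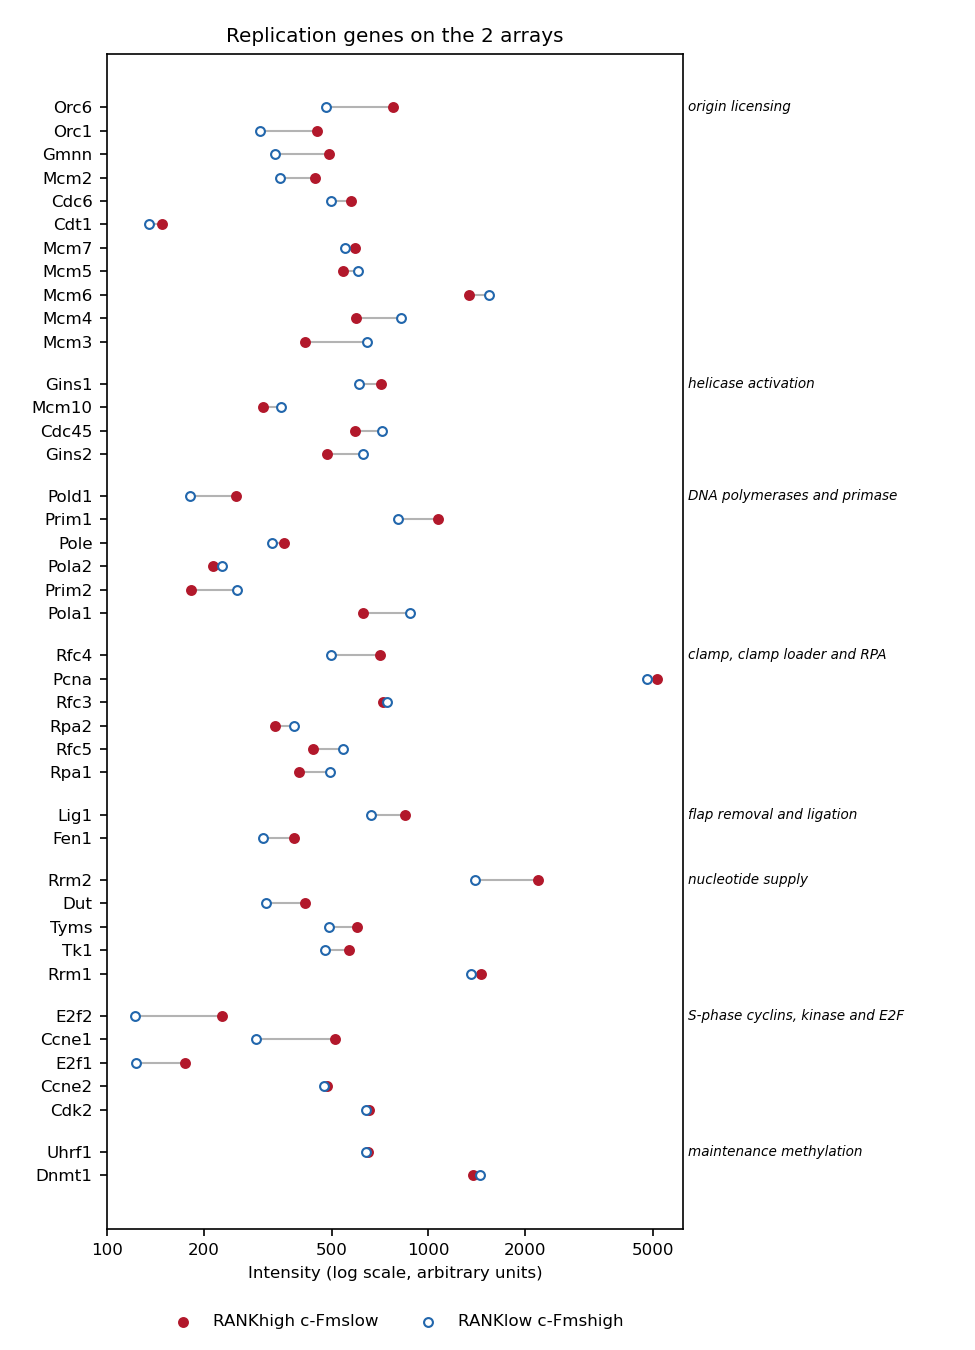
Intensity of each of the 41 genes (log axis, arbitrary units) on the RANKhigh c-Fmslow array (filled red) and the RANKlow c-Fmshigh array (open blue), grouped by role, with 1 array per population and therefore no error bar. No gene has points 2-fold apart, and the widest gap is that of E2f2, at 228 against 122.

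**Figure D2:**
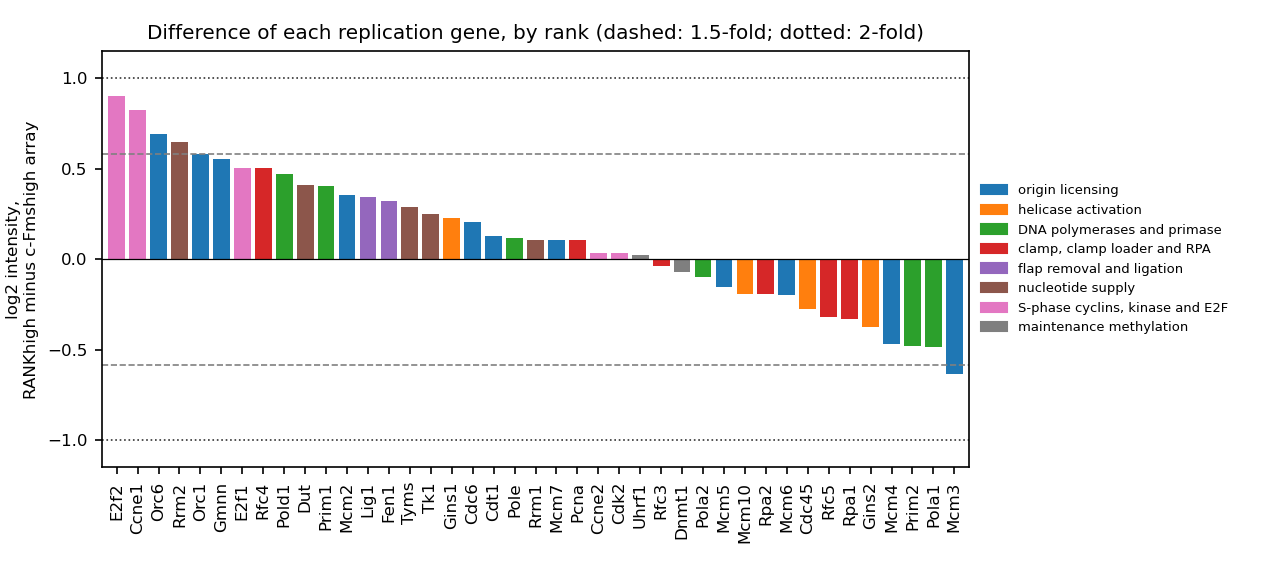
Log2 intensity difference (RANKhigh minus c-Fmshigh array) of the 41 genes in order, coloured by role, with dashed lines at 1.5-fold and dotted lines at 2-fold. Bars above 0 number 26, 4 of them pass the upper dashed line and 1, Mcm3, passes the lower, and none reaches a dotted line.

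Genes that open S phase held the highest differences. E2f2, a transcription factor that activates replication genes, stood at an intensity of 228 in RANKhigh c-Fmslow cells against 122 in RANKlow c-Fmshigh cells (1.87-fold higher, log2 difference 0.90, probe set 10509168). Ccne1, encoding cyclin E1, the partner of Cdk2 at the entry into S phase, stood at 514 against 290 (1.77-fold, 0.82, probe set 10562563). These were the top 2 of the 41, with Ccne1 (0.89) ahead of E2f2 (0.88) when differences were centred by level, and both at 0.76, Ccne1 again slightly ahead, with a pseudocount of 32. E2f1, the related activator, stood at 174 against 123 (0.51). Cyclin E2 and the kinase itself were nearly level, Ccne2 at 485 against 474 (0.03) and Cdk2 at 655 against 641 (0.03). All 5 genes of this role were thus above 0, with a median of 0.51, but the size was carried by E2f2, Ccne1 and E2f1.

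Genes for nucleotide supply were higher on the RANKhigh array in all 5 cases, with a median of 0.29. Rrm2, the regulatory subunit of ribonucleotide reductase that is made in S phase, led them at 2191 against 1395 (1.57-fold, 0.65, probe set 10394978). Its catalytic partner Rrm1 stood at 1461 against 1356 (0.11), a smaller difference. Dut, the enzyme that clears dUTP, was at 414 against 311 (0.41), and Tyms, thymidylate synthase, at 601 against 491 (0.29). Tk1, thymidine kinase, stood at 565 against 476 (0.25) as the mean of 2 probe sets that disagreed. Probe set 10393431 gave 383 against 373 (0.04), and probe set 10582809 gave 834 against 606 (0.46).

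Licensing genes were divided, with ORC and the regulators on the higher side and most of the helicase on the lower. Orc6, the smallest ORC subunit, stood at 774 against 479 (1.62-fold, 0.69, probe set 10573615), and Orc1, which binds ATP in the complex, at 449 against 300 (0.58), just under 1.5-fold. Gmnn, encoding geminin, the protein that blocks Cdt1 after S phase has begun, was at 489 against 333 (0.55). The loading factor Cdc6 stood at 574 against 496 (0.21) and Cdt1, the target of geminin, at 148 against 135 (0.13). Within the MCM2-7 ring the subunits did not share a direction. Mcm3 was the lowest of all 41 at 414 against 643 (-0.63, 1.55-fold lower, probe set 10353420), followed by Mcm4 at 597 against 826 (-0.47). Mcm6 at 1345 against 1544 (-0.20) and Mcm5 at 543 against 603 (-0.15) were lower by less. Mcm7 at 591 against 549 (0.11) and Mcm2 at 443 against 346 (0.35) were higher, so that the range across the ring was 0.99 on the log2 scale. Over all 11 licensing genes 7 were above 0, and the median was 0.13.

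Helicase activation was the role with the lowest median, -0.23, and 3 of its 4 genes were lower on the RANKhigh array. Gins2, a subunit of the GINS complex, stood at 482 against 626 (-0.38). Cdc45, which joins GINS and MCM2-7 in the active helicase, was at 593 against 718 (-0.28), and Mcm10, an activator of that helicase, at 305 against 348 (-0.19). Gins1 alone was higher, at 712 against 608 (0.23).

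Among polymerase and primase genes 3 of 6 lay on each side, and the median of 0.01 came to -0.003 when the median difference of all genes was subtracted. Pola1, the catalytic subunit of polymerase alpha, stood at 624 against 875 (-0.49) and Prim2, the large primase subunit, at 182 against 254 (-0.48). The small primase subunit gene Prim1 went the other way at 1069 against 808 (0.40). Pola2, the accessory subunit of polymerase alpha, was at 213 against 228 (-0.10). Pold1, the catalytic subunit of polymerase delta, was higher at 252 against 182 (0.47), and Pole, that of polymerase epsilon, stood at 355 against 327 (0.12).

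Clamp, clamp loader and RPA genes were lower on the RANKhigh array in 4 of 6 cases (median -0.12). Pcna, the sliding clamp, had 2 probe sets with nearly the same values, 5159 against 4803 (probe set 10461391) and 5165 against 4798 (probe set 10487930), a mean difference of 0.10. The platform annotation gives both the same transcript accessions, and the reference gene table lists Pcna pseudogenes, whose signal these probe sets may not separate. In the loader, Rfc4 was higher at 708 against 499 (0.51), Rfc3 stood at 726 against 745 (-0.04) and Rfc5 at 436 against 544 (-0.32). The sign of Rfc3 turned to 0.05 after quantile normalization and to 0.10 after centring by level. Of the subunits of RPA, which coats single-stranded DNA, Rpa1 at 395 against 496 (-0.33) and Rpa2 at 333 against 381 (-0.19) were lower, and Rpa3, which is not among the 41, stood at 683 against 632 (0.11).

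The genes that join Okazaki fragments were both higher, Fen1, the flap nuclease, at 382 against 306 (0.32) and Lig1, DNA ligase I, at 845 against 665 (0.35). Those that copy DNA methylation were level. Uhrf1, which recognises hemimethylated DNA, stood at 651 against 640 (0.02) and the methyltransferase Dnmt1 at 1381 against 1448 (-0.07), with a change of sign for Dnmt1 to 0.10 after quantile normalization and 0.05 after centring by level.

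The other subunits of the same complexes were added to see whether a complex differed as a whole. This grouping was made after the values had been seen. In ORC, Orc1 and Orc6 stood apart from Orc2 (0.04), Orc3 (0.09), Orc4 (-0.06) and Orc5 (0.21), and the median of the 6 was 0.15. In GINS, Gins4 (0.22) lay beside Gins1 (0.23), and Gins3 (-0.05) lay between them and Gins2. Polymerase delta had the widest range of these complexes at 1.28, from Pold2 (-0.36) to Pold4 (0.91), the smallest subunit, at 842 against 448. In polymerase epsilon, Pole3, a histone-fold subunit, stood at 831 against 530 (0.65), Pole4 at 844 against 693 (0.28) and Pole2 at 268 against 315 (-0.23). RFC had 1 of 5 subunits above 0, with Rfc1 (-0.15) and Rfc2 (-0.10) near its median of -0.10, which turned to 0.01 after centring by level. All 3 ribonucleotide reductase genes were above 0. Rrm2b, the alternative small subunit that p53 induces, showed the largest difference of them at 377 against 191 (0.98). Apart from ribonucleotide reductase, each of the 9 complexes had subunits on both sides of 0 in the values as deposited.

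**Figure D3:**
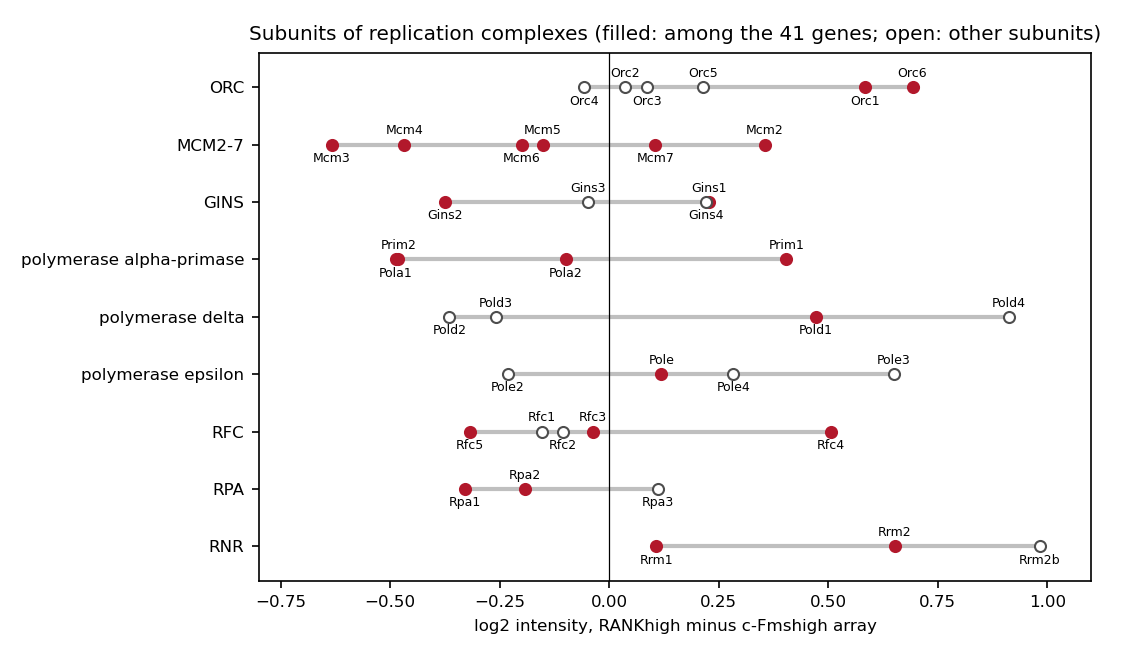
Log2 intensity difference (RANKhigh minus c-Fmshigh array) of the subunits of 9 replication complexes, with filled points for genes among the 41 and open points for the other subunits, and a grey bar from the lowest to the highest subunit. Ribonucleotide reductase (RNR) lies above 0 throughout, MCM2-7 reaches from -0.63 to 0.35 and polymerase delta from -0.36 to 0.91.

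Further genes of the pathway were taken from lists of names. Of 36 other origin and fork genes, 22 were above 0, with a median of 0.03. By 2-fold or more 0 were higher and 1 was lower. That gene was Dna2, a nuclease and helicase that trims long flaps, at 156 against 789 (5.06-fold lower, -2.34), farther from 0 than any of the 41. The next were Pold4 (0.91), Mcmbp, an MCM-binding protein gene, at 444 against 823 (-0.89), and Pole3 (0.65). Of 20 G1 cyclin, RB family and other E2F genes 12 were above 0 (median 0.11), 5 of them by 1.5-fold or more, and 2 were lower by as much. E2f4, an E2F of the repressing kind, stood at 757 against 381 (0.99), the cyclin gene Ccnd2 at 1111 against 579 (0.94) and the E2F partner Tfdp2 at 729 against 397 (0.88). E2f6, another repressor, was lower at 216 against 429 (-0.99).

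Nucleotide synthesis genes outside the 41 pointed the other way from those within it. Of 28 measured genes of purine, pyrimidine and folate-linked synthesis and of salvage, 6 were above 0 and 22 below, with a median of -0.34, while the 5 supply genes among the 41 were all above 0 (median 0.29). No gene was 2-fold apart, 6 were at least 1.5-fold lower and 1, Rrm2b, at least 1.5-fold higher. Atic, which completes the purine ring, stood at 715 against 1417 (-0.99), Adss, of AMP synthesis, at 1070 against 1900 (-0.83), and the nucleoside diphosphate kinase gene Nme2 at 376 against 676 (-0.85). The listed genes also serve RNA synthesis and cofactor supply, and the difference between the lists was not tested.

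Mitosis genes, which follow replication in the cell cycle, were above 0 for 20 of 23, with a median of 0.31 beside the 0.11 of the replication genes. Ube2c (0.76), Foxm1, a transcription factor of the G2 and M phases, at 461 against 275 (0.75), Mki67 (0.74) and Nusap1, of the spindle, at 905 against 550 (0.72) were the highest. All 4 stood above the 0.69 of Orc6 and below the 0.82 of Ccne1. The lists share their arrays, and without replicates their medians cannot be tested against each other.

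**Figure D4:**
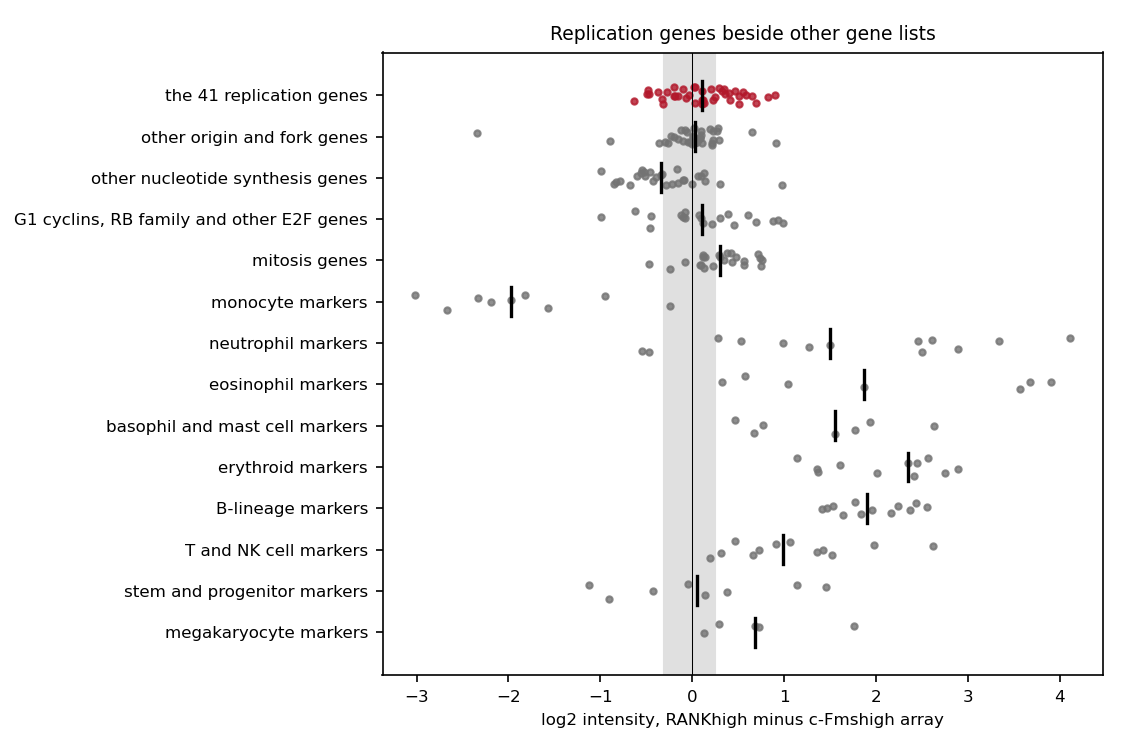
Log2 intensity difference (RANKhigh minus c-Fmshigh array) of the 41 replication genes (red) and of each gene of 13 other lists (grey), with 1 point per gene, a black line at each median and a grey band from -0.30 to 0.25, the quartiles of all genes that passed the level filter. The replication genes centre on 0.11 and mitosis genes on 0.31, whereas monocyte markers centre on -1.98 and erythroid markers on 2.35.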

How the data were processed

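Total RNA of sorted cells was amplified to cDNA, labelled with biotin and hybridised, per the labels' protocols. The authors deposited an intensity on a linear scale for each probe set and array. GCOS 1.4 and RMA are named in the submitters' processing notes. In the sources used here, their order, the background correction and the scaling between arrays are not stated. Intensities were put on the log2 scale with no pseudocount and no further scaling (Python 3.11.15, pandas 2.3.3). Of 28815 probe sets, 21780 name 1 gene in the platform annotation of 2016, 1605 name several and were not used, and 5430 are not listed there. Probe sets of a gene were averaged. All 43 probe sets of the 41 genes kept their symbols in the GRCm38.p6 gene table. Medians are over all measured genes of a list, and counts by fold are over genes that passed the level filter. Precision is limited by the number of arrays. The counting was tested on simulated data. All 41 genes are named, with up to 4 of largest difference from each further pathway list. Complex subunits were added after their values were seen. The genes, lists and fold sizes were chosen with earlier results of these data known. The 8 alternatives were another choice of probe sets (2), scaling (3), filter (2) and a pseudocount.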

Additional observations from a re-analysis of the deposited data

How the results depend on the processing

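Of 288 summary values under the 8 alternatives, 280 moved by less than the median gap between probe sets (0.19) or, for counts, stayed within 1.5 times, and 8 did not. The median of the 41 genes ran from 0.09 to 0.22 and the number above 0 from 24 to 28 (24 where only the 39 genes with 1 probe set were kept), while the count at 2-fold was 0 in each direction under every alternative. With differences centred in 20 bins of level, 7 genes in place of 4 were higher by 1.5-fold or more and 0 in place of 1 lower. After quantile normalization 6 were higher and 0 lower, with Mcm3 at -0.56. Among marker lists, the eosinophil median came to 3.57 and the T and NK cell median to 1.39 where both values had to exceed the receptor genes, which leaves fewer genes in each list. With a pseudocount of 32, which shrinks the differences of dim genes, the eosinophil, basophil and mast cell, and T and NK cell medians came to 1.52, 1.31 and 0.72. Of 326 values for single genes 1 moved by more than the gap, Tk1 (0.46 from its brighter probe set), and 4 changed sign, those of Rfc3 and Dnmt1 under quantile normalization and centring by level. Many of these values could not move. All 41 genes passed the level filter and exceeded the receptor genes, so the 2 filter alternatives left their values and summaries as they were. The medians of the other lists and of the complexes are over all measured genes, so dropping the level filter could not change them either. The 2 choices of probe sets could not change the values of the 39 genes with 1 probe set. The medians by complex and their alternatives were added after the data had been seen. No replicate could be left out, with 1 array per population.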
